A study of Arabidopsis thaliana with 8 samples.

Results

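The genes described here are 10 enzymes that build 3 wall polysaccharides in Arabidopsis thaliana: the cellulose synthases CESA1, CESA2, CESA3, CESA6 and CESA9 with the membrane-bound glucanase KOR1, the callose synthases GSL8 and GSL10, and the mannan synthases CSLA7 and CSLA9. They were taken by gene identifier from the 34133 genes of the table: CESA1 is AT4G32410, CESA2 AT4G39350, CESA3 AT5G05170, CESA6 AT5G64740, CESA9 AT2G21770, KOR1 AT5G49720, GSL8 AT2G36850, GSL10 AT3G07160, CSLA7 AT2G35650 and CSLA9 AT5G03760. The reference annotation lists all 10 under these names. The RNA was that of endosperm cut out with a laser (laser capture microdissection) 6 days after pollination, in crosses between the wild type Col-0 and the mutant ein2-5. There were 2 libraries for each of 4 crosses: ein2-5 x ein2-5 (ExE in the labels and below) with both parents mutant, ein2-5 x Col-0 (ExC) and Col-0 x ein2-5 (CxE) with 1 mutant parent, and Col-0 x Col-0 (CxC) with both parents wild type. The labels say that emasculated flowers were pollinated but not which name is the female, and the name before the x was read as the mother. How many seeds or plants went into a library is not given in the sources used here. ein2-5 is an allele of EIN2, the membrane protein that passes the ethylene signal to the nucleus. The seed coat is tissue of the mother. The study's title names endosperm cellularization and seed size, and the question put to these genes is whether their transcripts differed when the mother, the father or both were mutant.

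Endosperm first grows as a syncytium, in which nuclei divide without walls between them, and later cellularizes, when walls are laid down around the nuclei. Callose, a glucan, is an early component of such new walls, and cellulose and mannans are deposited in walls as they mature. Cellulose is made at the plasma membrane by complexes of 3 kinds of CESA subunit, callose by much larger proteins of the GSL family, and the mannan backbone in the Golgi by CSLA proteins. The primary-wall CESA genes and KOR1 work in most growing plant cells and are not particular to the endosperm.

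CESA and CSLA proteins share the QxxRW signature of processive glycosyltransferases, a glutamine and an arginine-tryptophan pair near the catalytic site, and its codons are shown as a stretch that the members of both families hold. They were searched in frame on the coding strand as CAANNNNNNCGNTGG, CAGNNNNNNCGNTGG, CAANNNNNNAGATGG, CAGNNNNNNAGATGG, CAANNNNNNAGGTGG and CAGNNNNNNAGGTGG in the RefSeq coding sequences of TAIR10.1. Each CESA and CSLA member held 1 match, KOR1, GSL8 and GSL10 held none, and 1.07% of all 27562 coding genes held at least 1. The windows below give the 15 bases of the match in capitals with 12 bases on each side, for the members and for their relatives CESA10 and CSLA2.
CESA1: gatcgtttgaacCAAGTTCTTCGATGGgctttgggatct
CESA10: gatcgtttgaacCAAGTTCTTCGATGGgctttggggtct
CESA3: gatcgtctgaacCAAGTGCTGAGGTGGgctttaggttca
CESA6: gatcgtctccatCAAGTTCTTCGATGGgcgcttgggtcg
CESA2: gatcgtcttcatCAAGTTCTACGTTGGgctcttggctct
CESA9: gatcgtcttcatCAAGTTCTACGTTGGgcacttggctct
CSLA7: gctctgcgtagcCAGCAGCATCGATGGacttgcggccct
CSLA9: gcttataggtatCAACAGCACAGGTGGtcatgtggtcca
CSLA2: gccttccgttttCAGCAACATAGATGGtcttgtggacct
CESA1, CESA10 and CESA6 had the same 15 bases, as did CESA2 and CESA9, so these bases alone do not separate the subunit positions. Over the whole coding sequence CESA1 and CESA10 were 84.1% identical, CESA2 and CESA9 84.7%, CESA6 and CESA5 86.0%, and CESA2 and CESA6 78.2%. CSLA7 and CSLA9 were 68.9% identical, and GSL8 and GSL10, which lack the signature, were 66.4% identical.

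Such likeness bears on how far reads of 1 gene can be told from those of its relatives. CESA6 and CESA5 shared 1 exact stretch of 50 bases, shown in capitals with the 6 bases around it in CESA6, and this was the only one of 4123 such stretches of the CESA6 transcript found in the transcripts of any other gene.
CESA6: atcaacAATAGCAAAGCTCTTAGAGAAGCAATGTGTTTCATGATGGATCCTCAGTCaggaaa
No 50-base stretch of CESA1, CESA2, CESA9, KOR1, GSL10, CSLA7 or CSLA9 occurred in the transcripts of another gene. In CESA3 and GSL8, 0.662% and 2.2% did, each in a gene that overlaps it on the opposite strand. The labels do not say whether libraries kept strand, so reads from these shared stretches cannot be told apart. The partner of CESA3, RUL1, averaged 1.13 FPKM and that of GSL8 was listed at 0 in all libraries. CESA1 and KOR1 also overlap genes on the opposite strand, AT4G32400 with a mean of 51.3 FPKM and AT5G49710 with a mean of 35.9 FPKM, but share no 50-base stretch with their transcripts.

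Levels are FPKM, fragments per length of transcript and per total of mapped fragments, as deposited. Depth, estimated from the steps between low values, was 650000 to 1961000 mapped fragments per library, lowest in CxC replicate 1. EIN2 itself had 19.7 and 23.7 FPKM in ExE, 26.2 and 22.2 in ExC, 31.4 and 50.03 in CxE, and 35.7 and 54.8 in CxC. Endosperm regulators were present (ZOU averaged 158 FPKM, HDG3 276 FPKM and PHE1 171 FPKM), while MINI3 and IKU2 averaged 0.466 and 0.169 FPKM and were listed at 0 in some libraries. Of the 10 endosperm markers tested, 8 had higher values in ExE than in CxC and 0 were called, with a median log2 difference of 0.82. Transcripts of neighbouring tissues were present as well. The 13 seed coat markers summed to 1311 and 900 FPKM in ExE, 862 and 467 in ExC, 739 and 614 in CxE, and 638 and 542 in CxC, with none at 0 in any library. Of these, 12 had higher values in ExE than in CxC, 0 were called, and their median log2 difference was 0.92. Over all genes 61.95% were higher in this comparison, with a median of 0.12, and 0.0101% were called. At an unadjusted p under 0.05 (limma), 9 seed coat and 6 endosperm markers were higher in ExE. That limit was passed by 10.6% of all genes, in either direction. The 7 embryo markers summed to between 504 and 659 FPKM, mostly from LEC1 and PDF1 (means of 408 and 115 FPKM), with WOX2 and DRN listed at 0 in some libraries. Of the 6 embryo markers tested, 2 had higher values in ExE than in CxC and 4 lower. None was called, 1 was higher at an unadjusted p under 0.05 (limma), and their median log2 difference was -0.16. In tissue pieces of this kind, fewer cells of a type and less RNA per cell cannot be told apart.

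Of the 10 members, 7 were transcribed at moderate to high levels in all 8 libraries and 3 were near the limit of detection. By mean level over the libraries the order was KOR1 at 60.9 FPKM, CESA3 at 59.95, CESA6 at 44.7, GSL8 at 37.8, CESA1 at 37.1, GSL10 at 35.9, CESA2 at 13.0, CSLA7 at 2.38, CESA9 at 0.727 and CSLA9 at 0.0308. The first 6 had overlapping ranges with their neighbours in this order, and a clear step followed, as GSL10 was never below 33.6 FPKM and CESA2 never above 18.6 FPKM. A second step separated CESA2, at least 8.52 FPKM, from CSLA7, at most 5.14 FPKM. KOR1 lay above 79.2% of the 19719 genes tested, CESA2 above 43.3% and CSLA7 above 15.3%. The filter for testing, at least 1 FPKM in at least 2 libraries, kept 9 members. CSLA9 did not pass, and CESA9 passed only through the 2 CxC libraries, so its comparisons with that cross are a description and lend no support.

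**Figure D1:**
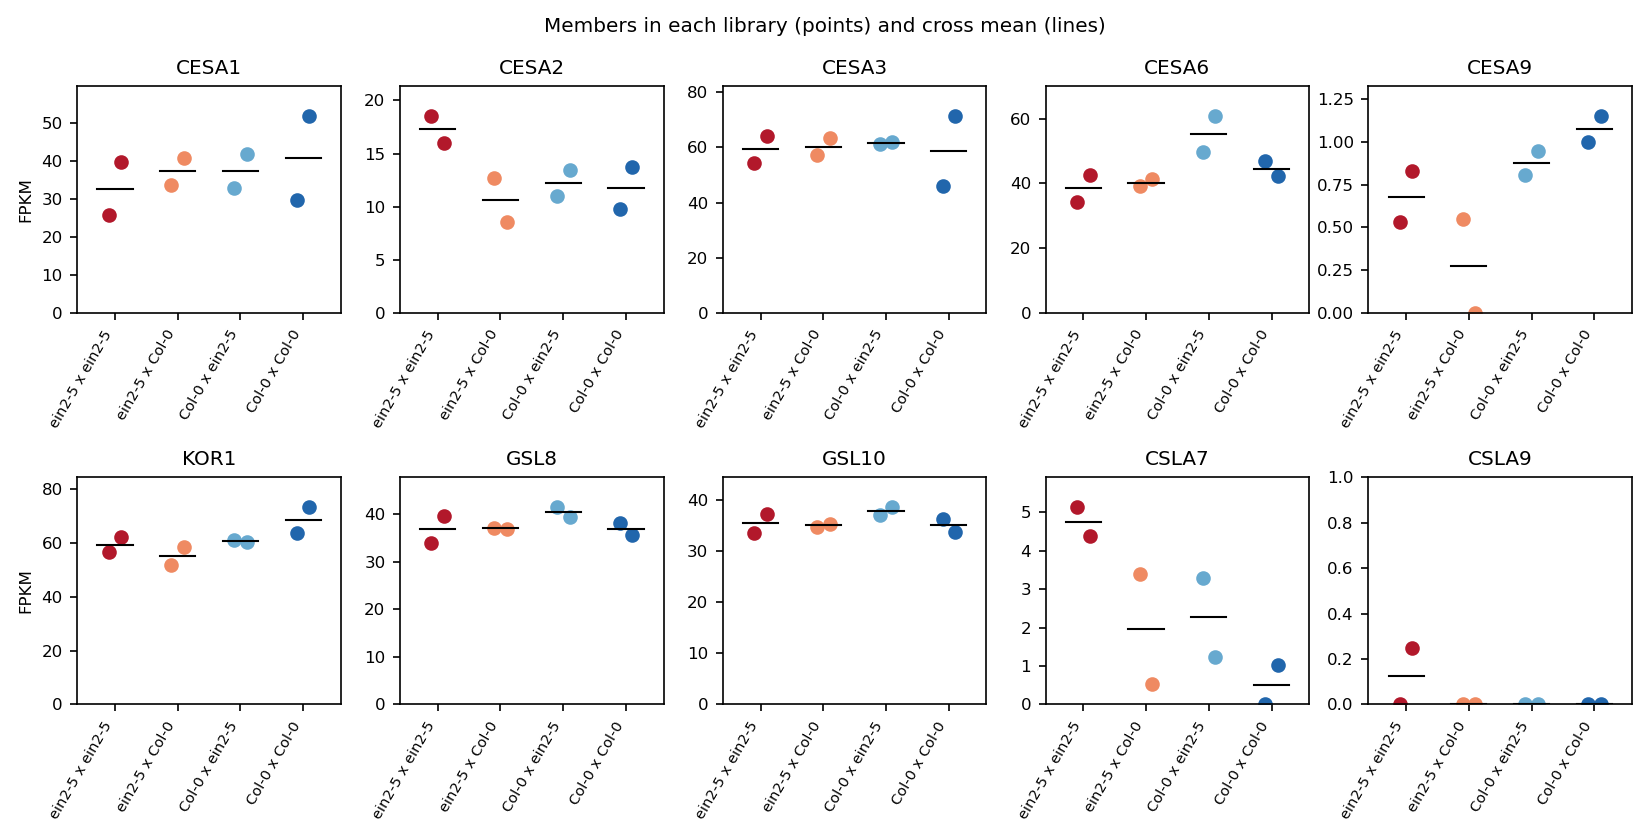
FPKM of each member (one panel per gene, vertical axes from 0 and scaled per gene) in the 4 crosses; points are libraries and lines are means of 2 libraries. GSL8 and GSL10 stay within 33.6 to 41.5 FPKM in every library, CSLA7 is highest in the ExE libraries at 4.38 and 5.14 FPKM, and CSLA9 is at 0 in 7 of 8 libraries.

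CESA1 and CESA3 are the subunits that every primary-wall cellulose synthase complex needs. For CESA1 the values were 25.7 and 39.8 FPKM in ExE, 33.9 and 41.0 in ExC, 32.9 and 42.0 in CxE, and 29.7 and 52.0 in CxC. The libraries of all crosses overlapped, and the lowest and the highest values in ExE and in CxC lay further apart than the means of these crosses, 32.8 FPKM in ExE and 40.9 FPKM in CxC. CESA3 had 54.4 and 64.1 FPKM in ExE, 57.2 and 63.4 in ExC, 61.2 and 61.8 in CxE, and 46.1 and 71.5 in CxC. Here the 2 wild-type libraries were the lowest and the highest of the 8, so the other 6 lay between them. With both parents mutant, the log2 difference from CxC was -0.29 ± 0.31 for CESA1 and 0.04 ± 0.21 for CESA3 (limma, SE; adjusted p = 0.749 and 0.965). These signs rested on single libraries: without CxC replicate 2 the CESA1 value was 0.10, and without CxC replicate 1 the CESA3 value was -0.27, while under median-ratio scaling and quantile normalization CESA3 was at -0.07 and -0.08.

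CESA6, the principal subunit of the third position, had the largest difference between the reciprocal crosses among the cellulose genes apart from CESA9. It had 34.4 and 42.5 FPKM in ExE, 39.2 and 41.3 in ExC, 49.8 and 60.9 in CxE, and 46.9 and 42.1 in CxC. Thus the 2 libraries with only the father mutant were the highest of all 8, and both ExC libraries lay below all 4 with a Col-0 mother. Against CxE, the reciprocal ExC differed by -0.44 ± 0.17 (log2, SE; 95% interval -0.84 to -0.04; unadjusted p = 0.0341, limma adjusted p = 1). Averaged over both fathers, CESA6 had a mean of 39.4 FPKM with mutant mothers and 49.9 FPKM with Col-0 mothers, a log2 difference of -0.33 ± 0.12 (unadjusted p = 0.0286, limma adjusted p = 0.693), and the libraries overlapped. At an unadjusted p under 0.05, 3.02% of all genes passed in the first of these comparisons and 7.08% in the second.

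CESA2 and CESA9 can take the place of CESA6 in the complex, and both are known from the walls of the seed coat epidermis. CESA2 had 18.6 and 16.0 FPKM in ExE, 12.7 and 8.52 in ExC, 10.97 and 13.5 in CxE, and 9.82 and 13.8 in CxC. The 2 libraries with both parents mutant were the highest of the 8. Their log2 difference from CxC was 0.53 ± 0.29 (95% interval -0.15 to 1.21; limma adjusted p = 0.568), and it was 0.30 without CxC replicate 1 and 0.31 under quantile normalization. Seed coat markers were highest in the same 2 libraries, at 1311 and 900 FPKM. They were lowest in ExC replicate 2, at 467 FPKM, where CESA2 was lowest too. The libraries between did not keep this order. CxC replicate 2, with 13.8 FPKM of CESA2, had a marker sum of 542 FPKM, and ExC replicate 1, with 12.7 FPKM, had 862 FPKM. Endosperm markers, by their mean log2(FPKM + 1) with each gene centred, were also highest in the 2 ExE libraries, at 0.65 and 0.19. The part of either marker list in the CESA2 values was not tested.

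CESA9 was barely detected, at 0.531 and 0.829 FPKM in ExE, 0.551 and 0 in ExC, 0.804 and 0.944 in CxE, and 1.00 and 1.153 in CxC. Whole fragments could be estimated from these steps. They came to 2 and 5 in ExE, 2 and 0 in ExC, 3 and 4 in CxE, and 2 and 6 in CxC. An estimate from depth and transcript length gave 2.4 and 6 in ExE and 2.4 and 7.2 in CxC. A count of 3 fragments would have been 0.489 to 1.48 FPKM in these libraries by the steps, and 0.413 to 1.25 FPKM by the second estimate. With so few, the rate in ExE relative to CxC was 0.643 with a counting interval of 0.198 to 2.03, and no difference was detectable at this depth.

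The 7 genes of the primary-wall complex were also summed by the position their proteins take. CESA1 with CESA10 summed to 43.8 and 60.1 FPKM in ExE and 38.8 and 61.6 in CxC. CESA6 with CESA2, CESA5 and CESA9 summed to 60.97 and 67.6 FPKM in ExE and 64.4 and 65.2 in CxC. Over all 8 libraries the CESA1 position held 25.3% to 31.3% of the 7 genes' FPKM, the CESA3 position 30.9% to 38.2% and the CESA6 position 32.9% to 43.1%. The secondary-wall genes CESA4, CESA7 and CESA8 added 1.63 to 3.42 FPKM in sum.

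CESA10, the closest relative of CESA1, had 18.0 and 20.3 FPKM in ExE, 16.3 and 5.50 in ExC, 11.03 and 9.48 in CxE, and 9.10 and 9.56 in CxC. It made up 41.2% and 33.8% of the CESA1 position in ExE, 32.6% and 11.8% in ExC, 25.1% and 18.4% in CxE, and 23.5% and 15.5% in CxC. Both libraries with 2 mutant parents stood above the other 6 in level and in share. Over all genes 27.4% had both ExE libraries above both CxC libraries in level, and the share above all other 6 was not computed. The log2 difference of CESA10 from CxC was 0.96 ± 0.43 (unadjusted p = 0.0573, limma adjusted p = 0.486). CESA2 made up 30.5% and 23.6% of the CESA6 position in ExE, 21.3% and 15.2% in ExC, 16.0% and 16.4% in CxE, and 15.3% and 21.1% in CxC, while CESA6 itself held 56.4% to 73.9% over all libraries. Sorted by CESA10 share, the 8 libraries stood in the same order as when sorted by their seed coat marker sum, from 1311 FPKM in ExE replicate 1 down to 467 FPKM in ExC replicate 2. By the markers' mean log2(FPKM + 1), each gene centred over the libraries, the order differed. There CxC replicate 1 (-0.33) stood below CxE replicate 2 (-0.13) and CxC replicate 2 (-0.25). By that measure ExE replicates 1 and 2, ExC replicate 1 and CxE replicate 1 were highest for seed coat and endosperm markers alike. The part of either marker list was not tested.

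**Figure D2:**
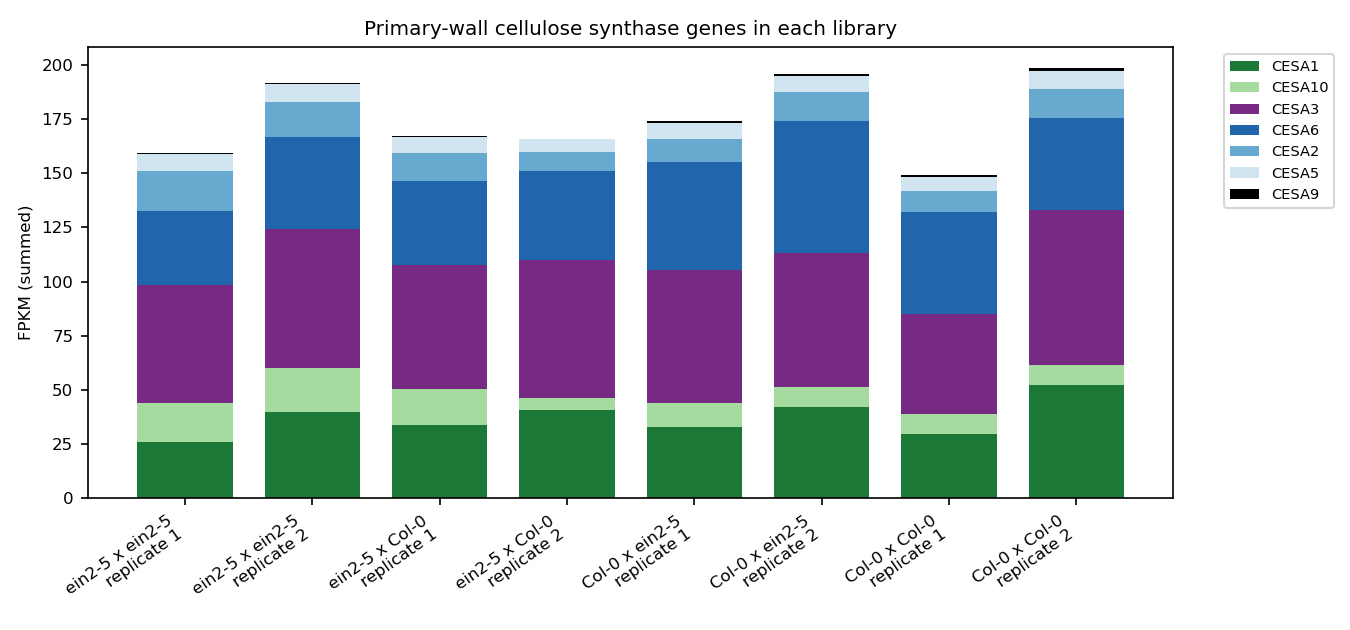
Stacked FPKM of the 7 primary-wall cellulose synthase genes in each library, grouped by cross; greens are the CESA1 position, purple CESA3, and blues with black the CESA6 position. CESA10 (light green) reaches 18.0 and 20.3 FPKM in the ExE libraries against 9.10 and 9.56 FPKM in CxC.

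KOR1 (KORRIGAN), an endo-glucanase that associates with the complex and is needed for cellulose synthesis and for cell plates, had 56.7 and 62.0 FPKM in ExE, 51.7 and 58.5 in ExC, 61.2 and 60.3 in CxE, and 63.6 and 73.3 in CxC. The 2 wild-type libraries were the highest of the 8, and each of the other crosses lay below them without overlap. Libraries lay below without overlap for 10.4% of all genes in ExE, 12.5% in ExC and 9.22% in CxE, each comparison taken alone. The 3 comparisons share the same wild-type libraries, and the share of genes below in all 3 was not computed. The log2 differences from CxC were -0.20 ± 0.14 for ExE, -0.31 ± 0.14 for ExC and -0.17 ± 0.14 for CxE (limma adjusted p = 0.647, 0.996 and 1). KOR3, chosen after its values were seen, is a close relative of KOR1 with a coding sequence 77.6% identical, and it was as abundant, with a mean of 62.6 FPKM and a range of 53.8 to 75.1 FPKM. Its 3 highest libraries were CxE replicate 2, CxC replicate 2 and ExE replicate 2, so it did not share the order of KOR1.

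The callose synthases were the steadiest of the members. GSL8, needed for callose at cell plates and plasmodesmata, had 33.9 and 39.7 FPKM in ExE, 37.1 and 37.0 in ExC, 41.5 and 39.5 in CxE, and 38.1 and 35.7 in CxC. GSL10, its nearest relative and like it required for pollen development, had 33.6 and 37.4 FPKM in ExE, 34.7 and 35.3 in ExC, 37.0 and 38.6 in CxE, and 36.3 and 33.8 in CxC. The highest library exceeded the lowest 1.22-fold for GSL8 and 1.149-fold for GSL10, and the ratio of GSL8 to GSL10 was between 1.01 and 1.12 in all 8 libraries. In ExE against CxC the log2 difference was -0.01 for GSL8 (95% interval -0.36 to 0.34) and 0.02 for GSL10 (95% interval -0.33 to 0.36), the second at -0.09 under median-ratio scaling and -0.13 under quantile normalization. These intervals leave room for differences of about that size in either direction.

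The standard deviation of log2(FPKM + 1) over the 8 libraries was 0.09 for GSL8 and 0.07 for GSL10. Among 3582 and 3631 genes with a mean FPKM within 1.5-fold of theirs, 98.6% and 99.7% varied more. Both are long transcripts, though, and collect more fragments at the same FPKM: an estimated 149 to 468 per library for GSL8 and 139 to 432 for GSL10. Among genes with a median number of estimated fragments within 1.5-fold, a comparison chosen after the values were seen, 85.2% of 1347 varied more than GSL8 and 95.3% of 1530 varied more than GSL10. Counting error alone would give about 0.0857 at the median of 283 fragments for GSL8 and 0.0906 at 254 fragments for GSL10, so the spread measured for both was about the size of counting error. The largest standard deviations were those of CSLA7 at 0.95, CESA9 at 0.35, CESA2 at 0.34 and CESA1 at 0.31. Counting errors at the median fragments were 0.18 for CESA2 and 0.11 for CESA1. They are errors of the log2 count without the added 1, which shrinks the spread of low genes. For CSLA7 and CESA9 they are therefore on another scale than the standard deviation and are not compared. Relative to genes with a like number of fragments CESA1 varied most of the 9 members, since 5.72% of 2325 such genes varied more, against 12% of 1742 for CSLA7 and 12.9% of 4198 for CESA2. KOR1 varied by 0.14, CESA3 by 0.19 and CESA6 by 0.24, against counting errors of 0.11, 0.0905 and 0.0998.

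**Figure D3:**
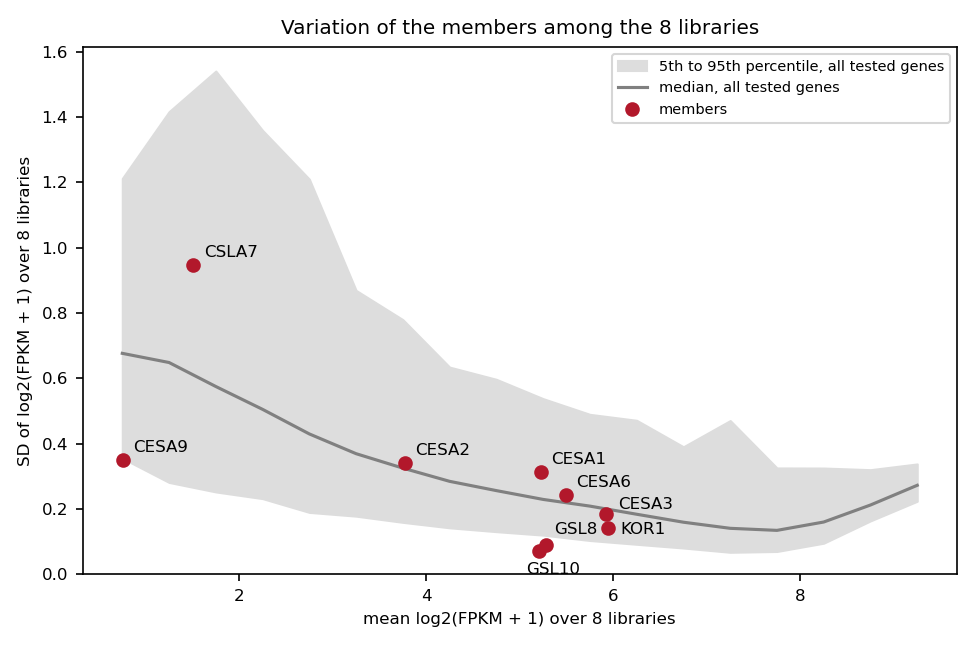
Standard deviation of log2(FPKM + 1) over the 8 libraries (vertical axis) against mean log2(FPKM + 1) (horizontal axis) for the 9 members tested; the line and shading are the median and the 5th to 95th percentile of all tested genes in steps of mean level. GSL8 at 0.09, GSL10 at 0.07 and, narrowly, CESA9 at 0.349 lie under the shading, and CESA1 at 0.31 lies above the line, as do CESA2, CESA6 and CSLA7.

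Among all 12 GSL genes, GSL8 and GSL10 held 37.7% to 43.8% of the summed FPKM. GSL12, a callose synthase that acts at plasmodesmata, was as abundant as GSL8, with a mean of 38.5 FPKM and a range of 33.2 to 40.9 FPKM, and it was the highest of the 10 others. Its log2 difference in ExE against CxC was -0.11 ± 0.15 (limma adjusted p = 0.816). Of the 7 other GSL genes tested, 0 were called in any comparison, and their median log2 difference with both parents mutant was -0.02 against 0.12 over all genes.

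The most abundant transcript of the CSLA family was that of a gene outside the members. CSLA2, which makes the glucomannan of seed coat mucilage, had 192 and 155 FPKM in ExE, 156 and 187 in ExC, 170 and 188 in CxE, and 200.04 and 129 in CxC, with the wild-type libraries again at both ends. It accounted for 96.2% to 99.5% of the summed FPKM of the 9 CSLA genes. CSLA9, a stem glucomannan synthase, was listed at 0 in 7 libraries and at 0.247 FPKM, 1 fragment, in ExE replicate 2. A count of 0 allows up to 3 fragments, which would be 1.02 to 1.31 FPKM in the 5 libraries at 0 with a mutant parent and 0.832 to 2.17 FPKM in CxC.

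CSLA7, a mannan synthase required for embryo development, had the largest difference among the members and the fewest fragments behind a tested difference apart from CESA9. Its level was 5.14 and 4.38 FPKM in ExE, 3.39 and 0.532 in ExC, 3.30 and 1.25 in CxE, and 0 and 1.015 in CxC. The fragments were 11 and 15 in ExE, 7 and 1 in ExC, 7 and 3 in CxE, and 0 and 3 in CxC. Both libraries with 2 mutant parents were above the other 6, the replicates of ExC and of CxE lay far apart, and ExC overlapped CxC. Per unit of depth, 26 fragments against 3 gave 6.37 times the wild-type rate, with a counting interval of 1.95 to 32.9 that does not cover the spread between libraries. On the log2(FPKM + 1) scale the difference was 2.02 ± 0.65 (95% interval 0.52 to 3.52; unadjusted p = 0.015), and it did not pass over all genes (limma adjusted p = 0.393). Its size depended on the number added before taking logs, at 3.86 with 0.1 and 0.83 with 5, and leaving out a library gave 1.51 to 2.52.

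The other contrasts of CSLA7 were smaller. With 1 mutant parent the fragment rate relative to CxC was 2.77 for ExC (0.664 to 16.2) and 3.01 for CxE (0.775 to 17.0). Averaged over the other parent, mutant fathers differed from Col-0 fathers by 1.14 ± 0.46 (unadjusted p = 0.0387, limma adjusted p = 0.787), and 6.08% of all genes had an unadjusted p under 0.05 there. Mutant mothers differed by 0.88 ± 0.46 (limma adjusted p = 0.737). CSLA7 was highest where seed coat markers were highest (ExE replicate 1, with 5.14 FPKM and a marker sum of 1311 FPKM) and had 0.532 FPKM where they were lowest (ExC replicate 2, with 467 FPKM), although its own lowest value, 0, fell in CxC replicate 1 with 638 FPKM. The 12 endosperm markers summed to 1256 and 966 FPKM in ExE, 1039 and 935 in ExC, 931 and 845 in CxE, and 1005 and 780 in CxC, so ExE and CxC overlapped in sum. They did not overlap by the mean centred log2(FPKM + 1) of the markers tested, at 0.65 and 0.19 in ExE and -0.25 and -0.34 in CxC. The part of either marker list was not tested.

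**Figure D4:**
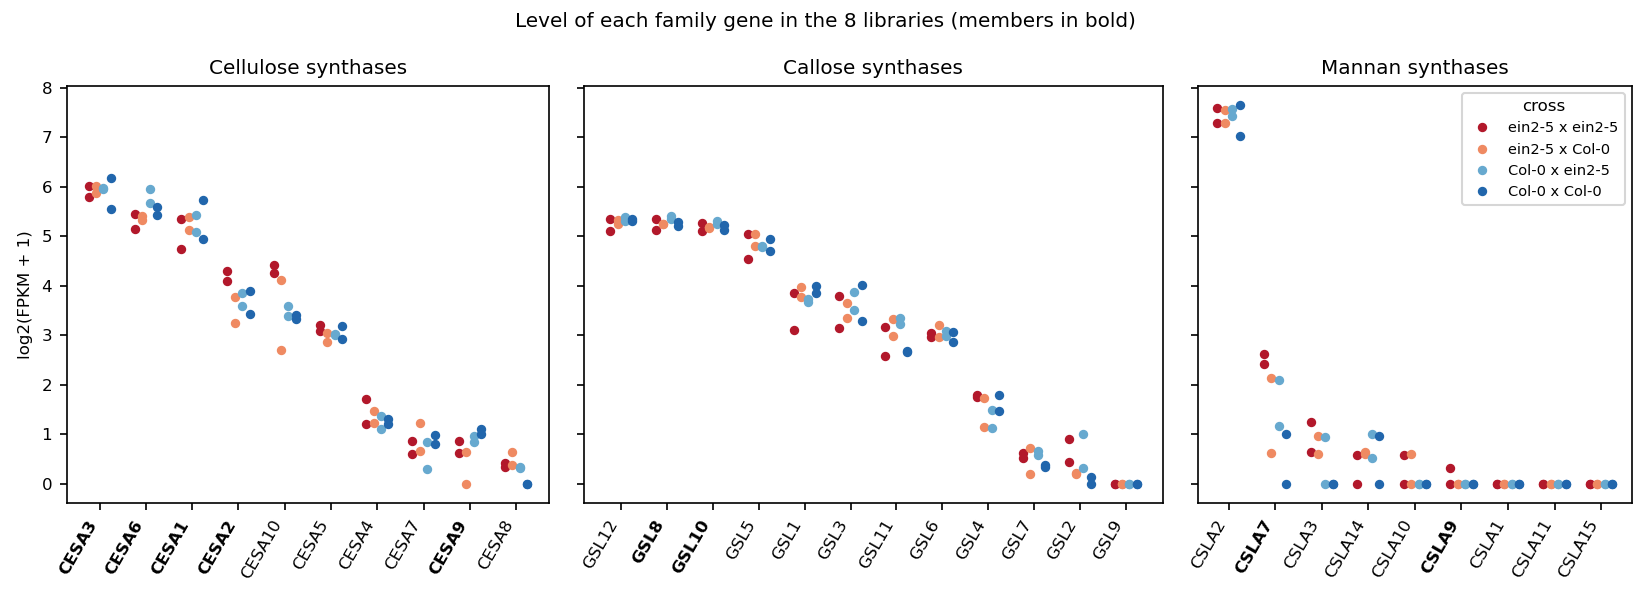
Level of every gene of the CESA, GSL and CSLA families as log2(FPKM + 1), each point a library coloured by cross and genes ordered by level within a family, with the members in bold. GSL12, GSL8 and GSL10 lie within 33.2 to 41.5 FPKM, and CSLA2, at 129 FPKM or more, stands far above CSLA7, whose libraries spread from 0 to 5.14 FPKM.

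Taking the 9 tested members as a set, 0 were called in ExE against CxC at a limma adjusted p under 0.05, where 0.0101% of all genes were called. At an unadjusted p under 0.05, 1 member passed, CSLA7, against 10.6% of all genes. The log2 difference was above 0 for 4 members and below 0 for 5, CESA9 among the 5, while 61.95% of all genes were above 0. Its median with CESA9 was -0.01 against 0.12 over all genes. This all-gene median itself shifted by -0.10 under median-ratio scaling and by -0.14 under quantile normalization. Under both scalings 2 members, CESA2 and CSLA7, were above 0 and 7 below, as CESA3 and GSL10 took the other sign. There 2 members had an unadjusted p under 0.05, CSLA7 and KOR1, the second with a log2 difference of -0.31 in each (unadjusted p = 0.0418 and 0.0441; limma adjusted p = 0.478 and 0.461). CESA2 and CSLA7 had both ExE libraries above both CxC libraries, as did 27.4% of all genes, and KOR1 had both below, as did 10.4%. CESA9 also had both below, but it passed the filter only through the CxC libraries. Its place in these counts and medians therefore lends no support.

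In ExC against CxC, 0 members were called and 0 had an unadjusted p under 0.05, against 0% and 4% of all genes, and 0 had both ExC libraries above, as 15% did. CESA6 and KOR1 had both below, as did 12.5%. CESA9 had too, but its filter rested on the CxC libraries, so here and in the medians against CxC it is a description only. The lowest unadjusted p was 0.0639, for KOR1. The median log2 difference was -0.08 against 0.02 over all genes. In CxE against CxC, 0 members were called and 0 had an unadjusted p under 0.05, against 0% and 2.92% of all genes, and the median was 0.10 against 0.06. Here CESA6, GSL8, GSL10 and CSLA7 had both libraries above both wild-type ones, as did 16.8% of all genes, and KOR1 had both below, as did 9.22%. CESA9 also had both below, again without support because of the filter. The log2 difference of CESA6 was 0.30 ± 0.17, that of GSL8 0.13 ± 0.15 and that of GSL10 0.11 ± 0.15.

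Between the reciprocal crosses, ExC against CxE, 8 of 9 members, CESA9 among them, had a negative log2 difference. Over all genes 46% had a positive one. Of the members 0 were called and 1 had an unadjusted p under 0.05, CESA6, against 0% and 3.02% of all genes. The median was -0.14 against -0.02 over all genes. GSL8, GSL10, KOR1 and CESA6 had both ExC libraries below both CxE libraries, as did 19.4% of all genes, and 0 members had both above, as 16.1% did. CESA9 had both below too, but with 2 and 0 fragments against 3 and 4 it is a description only. For GSL10 this was 34.7 and 35.3 FPKM in ExC against 37.0 and 38.6 FPKM in CxE, a log2 difference of -0.11 ± 0.15. For the mother's genotype 0 members were called and 1 had an unadjusted p under 0.05, CESA6, against 0% and 7.08% of all genes. No member had all 4 libraries of mutant mothers above (2.26% of all genes) or below (1.19%) those of Col-0 mothers. For the father's genotype 0 were called and 1 had an unadjusted p under 0.05, CSLA7, against 0% and 6.08%. No member had all 4 libraries of mutant fathers above (2.66% of all genes) or below (0.72%) those of Col-0 fathers. For the interaction of both, 0 members were called and 0 had an unadjusted p under 0.05, against 0% and 3.36%. The largest interaction among the members was 0.62 ± 0.42 for CESA2 (limma adjusted p = 1).

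**Figure D5:**
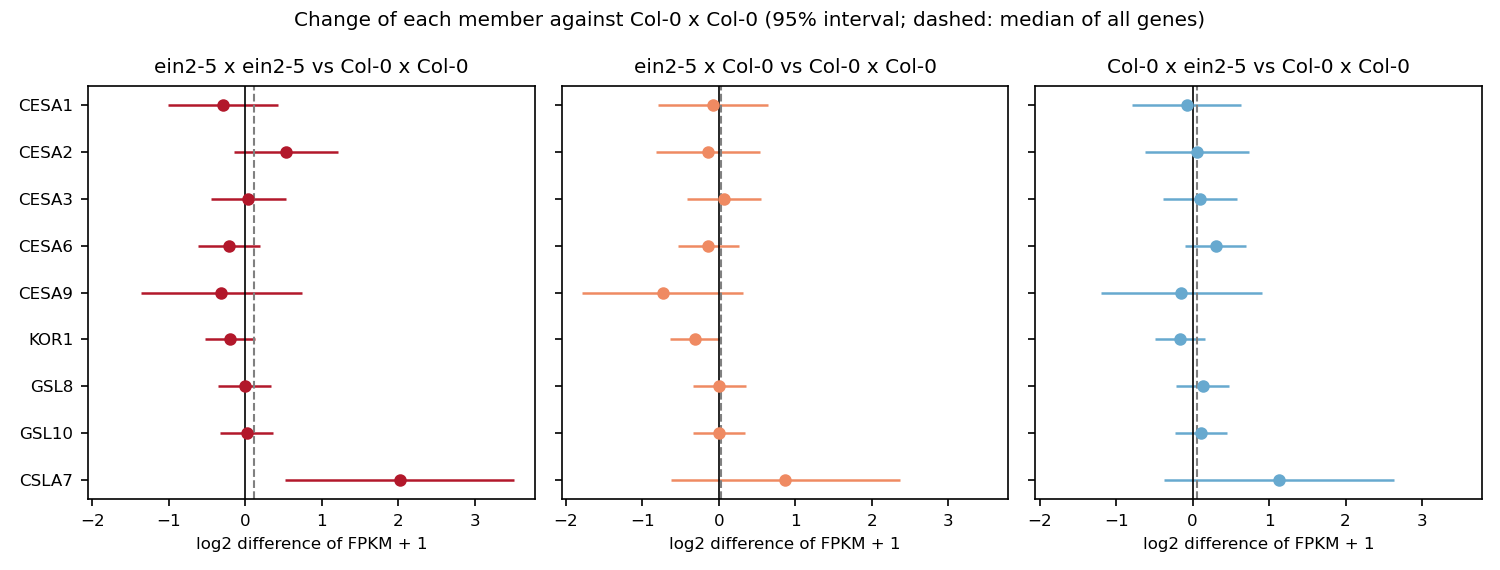
Log2 difference of FPKM + 1 for the 9 tested members (rows) between each cross with a mutant parent and CxC, with 95% intervals from limma; the dashed line is the median of all genes. CSLA7 at 2.02 in ExE is the only value whose interval, 0.52 to 3.52, does not reach 0, and it was not called over all genes.

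The wider pathway was described by 46 other genes in 5 lists, of which 44 had values and 28 passed the filter, and limma called 0 in any of the 7 comparisons. Among partners of the cellulose synthase complex, 9 were tested, with a median log2 difference of -0.19 in ExE against CxC. The most abundant was CTL1, a chitinase-like protein needed for cellulose assembly, with 205 and 207 FPKM in ExE, 213 and 215 in ExC, 206 and 221 in CxE, and 233 and 237 in CxC. Like KOR1 it was highest in the 2 wild-type libraries. Its log2 difference with both parents mutant was -0.19 ± 0.12 (limma adjusted p = 0.597). Of all genes, 10.4% lay below CxC without overlap in ExE, 12.5% in ExC and 9.22% in CxE, each comparison taken alone. Among the CSLD genes, relatives of the cellulose synthases, 4 were tested. CSLD5, which acts in the forming cell plate, was the most abundant, at 53.0 and 52.2 FPKM in ExE, 58.0 and 64.2 in ExC, 52.4 and 43.5 in CxE, and 65.1 and 54.5 in CxC. All 4 libraries with a mutant father lay below all 4 with a Col-0 father, as did 0.72% of all genes, and the log2 difference was -0.26 ± 0.11 (unadjusted p = 0.0479, limma adjusted p = 0.787).

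Of the other mannan genes 5 were tested, with a median log2 difference of 0.00 in ExE against CxC, and for CSLA2 it was 0.10 ± 0.22 (limma adjusted p = 0.893). One further gene of this list, AT2G22900, was chosen after its values were seen. It had 53.1 and 43.7 FPKM in ExE, 36.9 and 37.1 in ExC, 35.3 and 32.7 in CxE, and 35.3 and 38.4 in CxC. The 2 libraries with both parents mutant were the highest, with a log2 difference of 0.38 ± 0.16 (unadjusted p = 0.0442, limma adjusted p = 0.46). Of all genes, 27.4% had both ExE libraries above both CxC libraries, and 10.6% had an unadjusted p under 0.05. Of the other cellulose synthase genes 3 were tested, CESA4, CESA5 and CESA10, with a median of 0.20 in the same comparison.

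Likeness over the 8 libraries was measured as the root mean square difference of centred log2(FPKM + 1), among 12230 genes with a mean of at least 10 FPKM. For GSL8, whose own values had a root mean square deviation of 0.08, the nearest were AT1G23780 at 0.04, the ubiquitin protease gene UBP13 at 0.04 and GSL10 at 0.04. For CESA1, with 0.29, they were AT4G04340 at 0.05, NST-K1 (AT4G39390) at 0.08 and AT1G52540 at 0.08. These are descriptions over 8 libraries whose depth all genes share, and none was computed for CSLA9, which was not tested.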

How the data were processed

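The authors' deposited table gives FPKM for 34133 genes in 8 libraries, made with TopHat2 2.1.1, SAMtools 1.5 and Cufflinks 2.2.1 on TAIR10, per the submitters' processing notes; options, filters and strandedness are not given in the sources used here. The library kit was NEBNext Ultra, per the labels' protocols. Names, transcript lengths and coding sequences came from RefSeq TAIR10.1 (31416 identifiers matched), aligned with Biopython 1.88 under Python 3.11.15. Values were analysed as log2(FPKM + 1), which understates changes of low genes. The 19719 genes with at least 1 FPKM in at least 2 libraries were fitted with limma 3.58.1 in R 4.3.3 (4 cross means, eBayes with a variance trend, two-sided, Benjamini-Hochberg over all genes within each of 7 comparisons; called at an adjusted p under 0.05), with 4 residual and 3.73 prior degrees of freedom. Parental effects average over the other parent's genotype.

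The members, lists and naming rule were chosen with earlier results of these data known. Genes named beside the members are the highest of each list and the 3 nearest to CESA1 and GSL8; others are marked in the text. Where labels name no separate plants, p-values measure the spread between these libraries, which may be technical. Depth was estimated from 2605 low values, of which 98.3% were whole multiples of 1 fragment within 0.06 (12% by chance). Fragments of low members came from the smallest counts that were whole within 0.1, a condition of the fit and not a check of it. Estimates from depth and transcript length were higher where not 0, for CSLA7 in ExE 11.7 and 15.9 against 11 and 15. Counting intervals are exact (SciPy 1.17.1), at 95%, and cover counting error only. The fit was checked on simulated data for ExE against CxC. It called 0% of simulated 1.5-fold changes, 31.3% of 2-fold and 71.2% of 4-fold changes, with 5 false calls. Differences of about 2-fold or less would therefore mostly go uncalled, and some of 4-fold could go uncalled too. Of the 46 pathway genes, 44 had values and the others were not analysed here. The 16 alternatives covered pseudocount, filter, scaling, variance trend, replicate block and leaving out each library.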

Additional observations from a re-analysis of the deposited data

How the results depend on the processing

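Across 16 alternatives, 0 members were called in any of the 7 comparisons, with a lowest adjusted p of 0.18 (CSLA7 in ExE against CxC, without CxC replicate 2). The replicate block changed no call among the members, and CSLA7 in ExE against CxC had a limma adjusted p of 0.317. Each replicate number occurs once per cross, so this block could not move any log2 difference, only its p-value. The same holds for leaving out the variance trend. Replicate numbers carry no stated meaning, and replicate differences of 2 crosses correlated at only 0.0087 to 0.136. Of 980 recomputed member differences, 70 had the other sign, 11 of them after moving by at least their standard error. With 0.1 added before taking logs, the CSLA7 interaction was -0.98 instead of 0.02. Leaving out a library gave -1.02 to 0.50 for CSLA7 in ExC against CxE. It gave ranges against CxC of -0.27 to 0.35 (ExE), -0.24 to 0.38 (ExC) and -0.21 to 0.41 (CxE) for CESA3, and of -0.68 to 0.10, -0.47 to 0.32 and -0.47 to 0.31 for CESA1. CESA3 ran from -0.15 to 0.16 for the mother, -0.12 to 0.19 for the father and -0.44 to 0.19 for the interaction. These turns came without CxC replicate 1 for CESA3, without replicate 2 of that cross for CESA1, and without ExC replicate 2 for CSLA7, and the cause was not tested. Over all genes, calls in ExE against CxC numbered 2 (0 with the replicate block, 32 without CxC replicate 2) and ran from 0 to 32, and the other comparisons, at 0, reached 3 to 15. Precision is limited by 2 libraries per cross, and CESA9, CSLA7 and CSLA9 are further limited by their few fragments.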
